A study of Homo sapiens with 4 samples.

Results

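The genes described here encode molecular chaperones and their partners: the HSP70 family (symbols HSPA), the small heat shock proteins (HSPB), the mitochondrial chaperonin HSPD1, the HSP90 co-chaperones STIP1 and CHORDC1, and 4 proteins with a BAG domain. They were chosen by symbol, as protein-coding genes that begin with DNAJ, HSPA, HSPB, HSPD, HSPE, HSP90 or CCT and a digit, or that are TCP1, STIP1, AHSA1, CHORDC1 or one of the BAG genes other than BAG3. The strongly stress-induced pair HSPA1A and HSPA1B was left out by the rule. RefSeq lists 90 such genes, and 20 of them had a named probe set among the 14884 genes measured. The set was put together to hold the DNAJ, CCT and constitutive HSP chaperones, but with the annotation used here 0 of 45 DNAJ genes, 0 of 10 CCT and TCP1 genes and 0 of 3 HSP90 genes were measured. Those genes are not analysed here. Throughout, a gene counts as measured only where that annotation names a probe set for it, and unnamed probe sets may still cover others. What is described is therefore 9 HSPA genes, 4 genes whose symbols begin with HSPB, HSPD1, 4 BAG genes, STIP1 and CHORDC1. The symbols DNAJC27-AS1, DNAJC9-AS1, HSPA7 and HSPB2-C11orf52 also match the letters and were left out as non-coding genes.

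Chaperones bind proteins that are unfolded or not yet folded and keep them from aggregating. An HSP70 protein holds and releases its client in a cycle of ATP binding and hydrolysis, in which J-domain proteins (DNAJ) speed up hydrolysis and nucleotide exchange factors, among them the HSP110-type and BAG proteins, let ADP go. STIP1 passes clients from HSP70 on to HSP90, and chaperonins fold proteins inside a closed chamber. Many of these genes are transcribed in unstressed cells, and heat shock factor HSF1 raises a part of them further when unfolded proteins build up, by binding heat shock elements, which are inverted repeats of a GAA unit.

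All samples were LS411N-5FU-R cells, a human colon carcinoma line made resistant to 5-fluorouracil (5-FU) from the metastatic line LS411N. Both groups grew in RPMI medium with 10% FBS for 3 days, either without verticillin A (0 nM, the control, 2 arrays) or with verticillin A at 50 nM (2 arrays). Verticillin A is a fungal epipolythiodioxopiperazine. The labels do not say whether arrays of 1 group stand for separate cultures. Every p-value therefore rests on the spread between these arrays alone, which may be technical. Part of that spread is shared between genes by limma, so a p-value does not measure the spread of its own gene only.

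Values are log2 expression per probe set, and each log2 change is treated minus control, so that a positive value means more transcript with verticillin A. Adjusted p means limma's p-value after Benjamini-Hochberg adjustment over all 14884 genes, and a gene is said to have risen or fallen only where it is under 0.05. The array medians lay between 4.59 and 4.62. Arrays of 1 group correlated at 0.994 and 0.995 and arrays of different groups at 0.990 to 0.992, over probe sets, which are not independent replicates. Among colon epithelial markers 10 of 13 were measured, with EPCAM at 11.11 and KRT18 at 10.37 in the control, whereas CEACAM5 (3.55), CDX1 (4.06), GPA33 (4.44) and KRT20 (4.61) were at or below the array medians. Of these 10 markers 2 passed, in opposite directions: KRT19 rose (log2 change 0.44, adjusted p = 0.0493) and VIL1 fell (-0.62, adjusted p = 0.0167). Their part in the results below was not tested. The 7 measured markers of leukocytes, fibroblasts and endothelium had group means between 3.42 and 4.63, and 0 of them passed in limma (0 at an unadjusted p under 0.05). In cells measured in bulk, fewer cells with a transcript and less of it per cell cannot be told apart.

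Of the 20 chaperone genes, 4 rose with verticillin A and 0 fell. Those that rose were HSPA2, an HSP70 that is abundant in testis, the HSP90 co-chaperones CHORDC1 and STIP1, and the HSP110-type exchange factor HSPA4L. Over all genes tested, 8.65% passed, 3.55% as higher and 5.1% as lower. At an unadjusted p under 0.05, limma gave 8 chaperone genes higher and 3 lower, where 12% and 14.7% of all genes were higher and lower. The median log2 change over the 20 genes was 0.13, against -0.01 over all genes tested, and single changes ran from -0.33 to 0.82. Both treated arrays lay above both control arrays for 11 of the 20 genes and below them for 8 (25.7% and 29.1% of all genes), and only HSPB8 had overlapping groups. The intervals given below are 95% intervals of the log2 change. The calls were few and rest on 2 arrays a group. They did not hold in the fits without 1 array, where few or no genes of the whole series passed. Without an array, the log2 changes of the 4 genes stayed between 0.44 and 0.90.

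**Figure D1:**
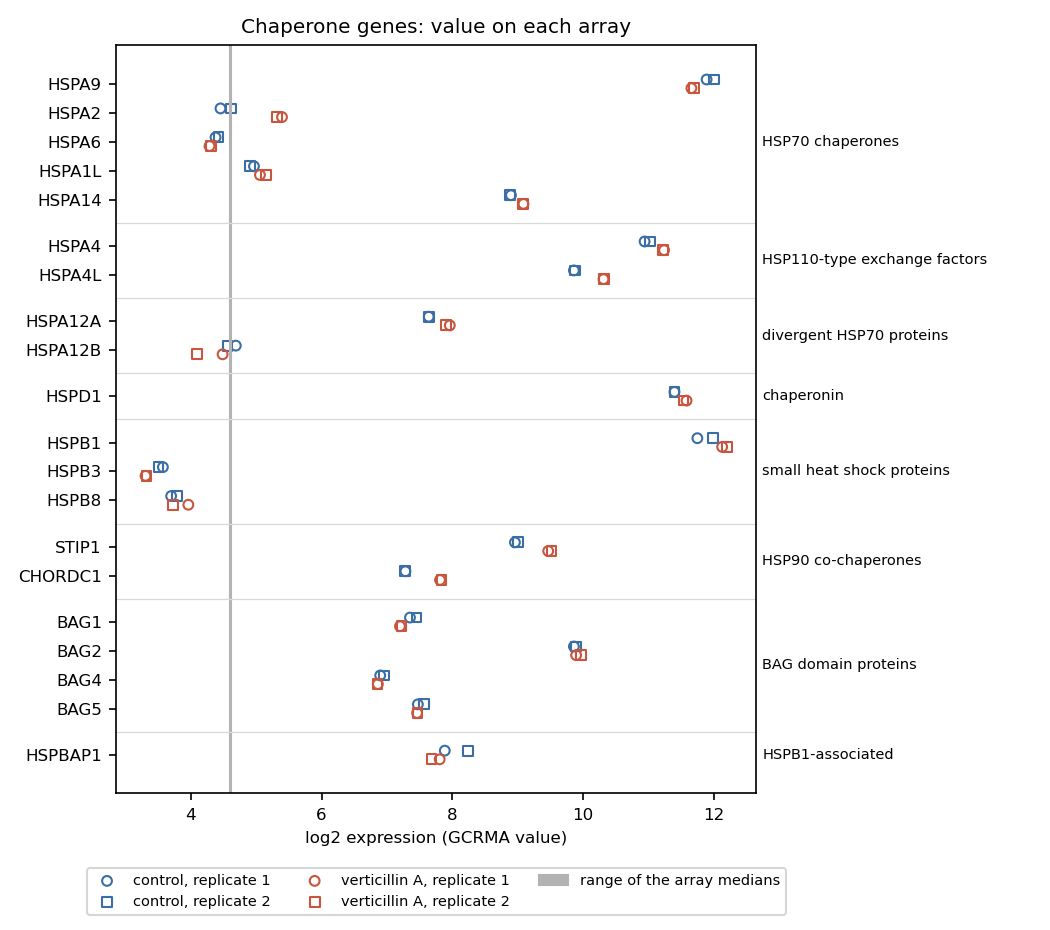
Log2 expression of the 20 chaperone genes (horizontal axis) on each of the 4 arrays, with genes in rows by role; blue marks are control arrays, red marks arrays with verticillin A, circles replicate 1 and squares replicate 2, and the grey line spans the array medians (4.59 to 4.62). The red marks of HSPA2, HSPA4L, STIP1 and CHORDC1 lie to the right of the blue ones, those of HSPA9 to the left, and HSPB8 alone has overlapping groups.

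Both HSP90 co-chaperones that the symbol rule covers and that were measured, CHORDC1 and STIP1, rose. CHORDC1 encodes a protein with CHORD zinc-binding domains that binds HSP90. It measured 7.28 and 7.28 on the control arrays and 7.81 and 7.83 on the arrays with verticillin A. The control arrays were nearly equal and both treated arrays lay well above them. CHORDC1 was 1.46-fold higher (7.28 ± 0.002 to 7.82 ± 0.016, SD, n = 2 per group, log2 change 0.54 with interval 0.38 to 0.71, adjusted p = 0.0162). STIP1 encodes HOP, the adaptor whose tetratricopeptide repeats hold HSP70 and HSP90 at once. It measured 8.96 and 9.001 in control cells and 9.47 and 9.52 with verticillin A, again without overlap. STIP1 was 1.43-fold higher (8.98 ± 0.03 to 9.49 ± 0.04, SD, n = 2 per group, log2 change 0.51 with interval 0.34 to 0.68, adjusted p = 0.0188). AHSA1, which stimulates the ATPase of HSP90, had no named probe set.

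The sequences before the gene starts are shown for the 4 genes that rose, and for HSPD1 and HSPA6, which hold long heat shock element matches and did not pass the test. They are the 250 bases upstream of a RefSeq start on build GRCh38.p14, written along the gene's strand. For a gene with several starts, the start with the most 8-letter matches is shown, or the first of them where they tie. Capitals mark each match to GAANNTTC (head to head) or TTCNNGAA (tail to tail), the 2 ways in which neighbouring GAA units can face each other. Each of these 8-letter motifs reads the same on both strands. CHORDC1 is at chr11:90223050-90223299 (minus strand), HSPA4L at chr4:127782072-127782321 (plus strand, the second of 3 starts), STIP1 at chr11:64185022-64185271 (plus strand, the first of 2 starts), HSPA2 at chr14:64540491-64540740 (plus strand), HSPD1 at chr2:197499841-197500090 (minus strand, 1 of 2 starts) and HSPA6 at chr1:161524290-161524539 (plus strand).
CHORDC1: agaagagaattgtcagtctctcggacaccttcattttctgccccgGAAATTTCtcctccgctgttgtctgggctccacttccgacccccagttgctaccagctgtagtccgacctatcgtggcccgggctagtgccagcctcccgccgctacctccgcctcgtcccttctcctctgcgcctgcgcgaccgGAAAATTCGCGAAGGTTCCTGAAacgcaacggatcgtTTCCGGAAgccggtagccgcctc
HSPA4L: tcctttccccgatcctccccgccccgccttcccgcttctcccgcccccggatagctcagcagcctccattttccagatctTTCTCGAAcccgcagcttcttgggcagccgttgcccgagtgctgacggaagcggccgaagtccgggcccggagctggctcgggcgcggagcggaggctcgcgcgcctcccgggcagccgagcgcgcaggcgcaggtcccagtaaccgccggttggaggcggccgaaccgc
STIP1: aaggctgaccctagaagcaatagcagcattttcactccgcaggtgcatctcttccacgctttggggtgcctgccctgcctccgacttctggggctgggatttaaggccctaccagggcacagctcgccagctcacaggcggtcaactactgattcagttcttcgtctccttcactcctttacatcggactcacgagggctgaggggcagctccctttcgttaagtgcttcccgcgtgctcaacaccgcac
HSPA2: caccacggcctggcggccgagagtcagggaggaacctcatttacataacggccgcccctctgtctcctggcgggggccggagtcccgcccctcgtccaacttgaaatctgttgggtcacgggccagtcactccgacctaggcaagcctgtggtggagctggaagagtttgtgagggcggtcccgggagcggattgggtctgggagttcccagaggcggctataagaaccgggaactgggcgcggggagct
HSPD1: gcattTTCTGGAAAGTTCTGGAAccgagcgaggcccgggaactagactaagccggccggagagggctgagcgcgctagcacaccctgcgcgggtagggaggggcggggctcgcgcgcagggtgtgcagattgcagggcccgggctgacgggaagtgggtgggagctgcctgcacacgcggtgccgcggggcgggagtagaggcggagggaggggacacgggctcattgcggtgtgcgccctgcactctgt
HSPA6: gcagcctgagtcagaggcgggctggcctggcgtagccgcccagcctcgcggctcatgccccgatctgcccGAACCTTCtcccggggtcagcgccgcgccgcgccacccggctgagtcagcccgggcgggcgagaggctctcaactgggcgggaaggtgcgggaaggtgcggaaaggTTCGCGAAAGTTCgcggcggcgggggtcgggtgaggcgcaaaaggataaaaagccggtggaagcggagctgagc

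CHORDC1 held the most matches of the members, 6 in all. Its 4 middle ones overlap each other and form an unbroken run from base -60 to base -38, counted from the gene start. A longer motif of 13 letters, in which 3 GAA units follow each other in alternating orientation, was searched on both strands. It holds 1 match of each 8-letter kind. It was found in the windows of CHORDC1 (3 overlapping matches), HSPD1 (2) and HSPA6 (1), which are 3 of the 23 windows of the 17 members that RefSeq's table lists. HSPA12B, HSPA14 and BAG4 had no window in it. Of all 35116 windows of that length, 0.441% held the longer motif and 11.6% held GAANNTTC or TTCNNGAA, against 9 of the 23 member windows. HSPA4L held 1 such match, at its second start, and the windows of STIP1 and HSPA2 held none of these letters. Of the 4 genes that rose 2 had an 8-letter match, and of the 13 others with a window 7 had one. A gene counted as having a match where any of its starts held one, so genes with several starts had more windows to match. Matches were thus found among genes of both results, and whether they go with the rises was not tested. CHORDC1 measured 0.54 as a log2 change, and HSPA6, with a 13-letter match at base -74, measured -0.11. HSPA6 lay below the array medians and cannot be separated from background. HSPA1L, HSPB3 and HSPB8, which have an 8-letter match, lay near or below those medians and cannot be separated from it either. A match is a description of the letters and not of binding.

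**Figure D2:**
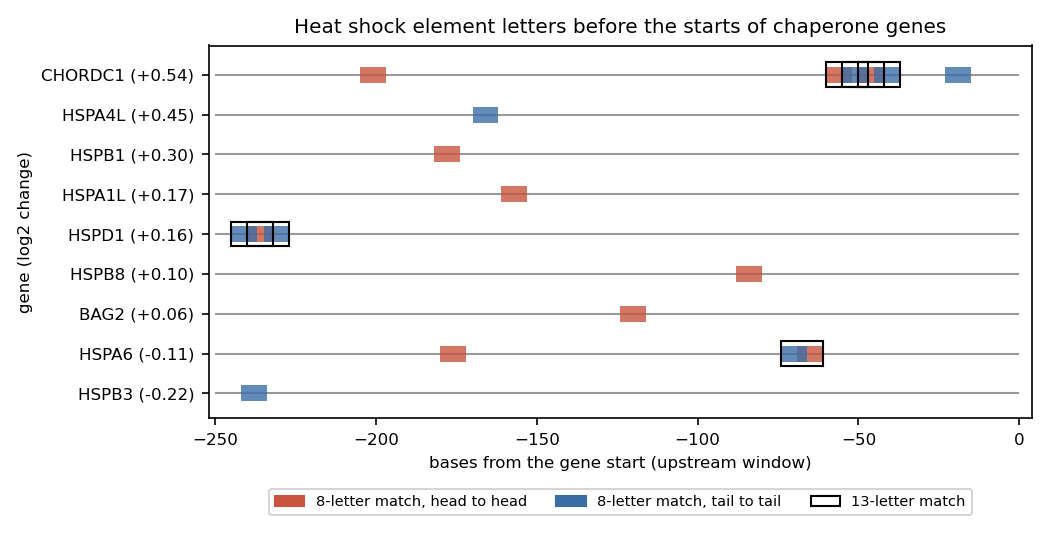
Position of heat shock element letters in the 250 bases before the start of the 9 chaperone genes that have a match (horizontal axis, bases from the gene start; genes in rows by log2 change, which is in brackets); red and blue blocks are 8-letter matches and black outlines 13-letter matches. CHORDC1 has an overlapping run of matches close to its start, HSPD1 one at the far end of its window and HSPA6 one near base -74.

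The HSP110-type exchange factors are relatives of HSP70 that let it release ADP. HSPA4L measured 9.86 and 9.87 on the control arrays and 10.31 and 10.32 with verticillin A, 2 pairs of nearly equal arrays that lay apart. It was 1.37-fold higher (9.87 ± 0.008 to 10.32 ± 0.003, SD, n = 2 per group, log2 change 0.45 with interval 0.29 to 0.61, adjusted p = 0.0224). With the replicate number as a block its call was lost (adjusted p = 0.0525). HSPA4, the closely related gene expressed in most tissues, measured 10.94 and 11.02 in the control and 11.24 and 11.22 with verticillin A. Both treated arrays lay above the control, but HSPA4 did not pass (log2 change 0.25, interval 0.07 to 0.42, adjusted p = 0.0907). It passed with an intensity trend in the prior variance (adjusted p = 0.00529) and with the dimmest 50% of genes left out (adjusted p = 0.0276). In these settings more of all genes passed too, 1067 higher and 1361 lower of 14884, and 1070 and 1329 of 7442. Whether HSPA4 and HSPA4L differed in their response was not tested.

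Among the 5 HSP70 chaperones HSPA2 alone passed. HSPA2 measured 4.45 and 4.62 on the control arrays, at the level of the array medians, and 5.39 and 5.32 with verticillin A. Both treated arrays were above both control arrays by at least the distance between the control arrays. The measured values were 1.77-fold higher (4.54 ± 0.12 to 5.36 ± 0.05, SD, n = 2 per group, log2 change 0.82 with interval 0.61 to 1.04, adjusted p = 0.0118). As no detection calls were used, its control level cannot be separated from background, so the size of the rise is not fixed by these values and its rank among the 20 genes is not read. HSPA9, or mortalin, is the HSP70 of the mitochondrial matrix, where it pulls in imported proteins. It measured 11.89 and 12.01 in control cells and 11.66 and 11.69 with verticillin A. Both treated arrays lay below the control, which for HSPA9 gave a log2 change of -0.27 (interval -0.46 to -0.09) and an adjusted p of 0.0851. HSPA9 passed as lower with an intensity trend (adjusted p = 0.00449) and with the dimmest 50% of genes left out (adjusted p = 0.0262). In both settings calls were also more frequent over all genes.

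HSPA14, which acts on nascent chains at the ribosome, measured 8.90 and 8.89 in the control and 9.09 and 9.09 with verticillin A. The spread within each group was very small, yet the change of 0.19 (interval 0.03 to 0.36) did not pass against the variance that limma shares between genes (adjusted p = 0.133). HSPA14 also passed under the intensity trend and without the dimmest 50% of genes (adjusted p = 0.0372 and 0.044), where more of all genes passed. HSPA6, a heat-inducible HSP70 that is scarcely transcribed without stress, measured 4.38 and 4.42 in the control and 4.29 and 4.31 with verticillin A. It stayed below the array medians on all 4 arrays (adjusted p = 0.399), and its probes may share RNA with the near-identical pseudogene HSPA7. HSPA1L, a testis HSP70 whose gene lies beside HSPA1A and HSPA1B, measured 4.97 and 4.91 in the control and 5.06 and 5.15 with verticillin A (log2 change 0.17, adjusted p = 0.222). Of its 5 probe sets 3 had identical values, and its probes may also detect its close relatives. The probe set shown had the largest change of the 5, and with their mean HSPA1L had a change of 0.12 (adjusted p = 0.411). Constitutive HSPA8 and the ER chaperone HSPA5 had no named probe set.

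The divergent HSP70 proteins HSPA12A and HSPA12B share part of the HSP70 ATPase fold. HSPA12A measured 7.64 and 7.65 in the control and 7.96 and 7.90 with verticillin A, without overlap. Its change of 0.29 (interval 0.12 to 0.46) missed the threshold at adjusted p = 0.0619. HSPA12A was the member closest to it, and passed in 5 other settings (median centring, the dimmest 25% or 50% left out, protein-coding genes only, and an intensity trend), at adjusted p between 0.0163 and 0.0457. Its second probe set, dimmer at 3.67 in the control, had a change of -0.15, so its probe sets disagree in sign. With the mean of both in its place, HSPA12A had a change of 0.07 (adjusted p = 0.604). HSPA12B measured 4.69 and 4.56 in the control and 4.49 and 4.10 with verticillin A, near or below the array medians, with a wide interval (-0.69 to 0.02, adjusted p = 0.21). The change of HSPA12B was -0.53 without verticillin A replicate 1 and -0.14 without verticillin A replicate 2.

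HSPD1 encodes HSP60, the chaperonin of the mitochondrial matrix, which folds imported proteins that HSPA9 hands on. It measured 11.40 and 11.40 on the control arrays and 11.58 and 11.54 with verticillin A. Its treated arrays were thus above the control while those of HSPA9 were below, but HSPD1 did not pass (log2 change 0.16, interval -0.01 to 0.33, adjusted p = 0.203). With an intensity trend HSPD1 was higher at adjusted p = 0.0196. The partner HSPE1, which closes the chaperonin chamber, had no named probe set.

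None of the 3 small heat shock proteins passed in limma, with 2 at an unadjusted p under 0.05. HSPB1, or HSP27, forms large oligomers that hold unfolding proteins and is abundant in epithelial cells. It measured 11.75 and 11.98 in control cells and 12.13 and 12.20 with verticillin A. The control arrays differed from each other by more than the gap between the groups, and the change was 0.30 (interval 0.05 to 0.55, adjusted p = 0.13). HSPB1 passed with an intensity trend (adjusted p = 0.0213), and its change was 0.18 without control replicate 1 and 0.42 without control replicate 2. HSPB3, a muscle gene, measured 3.57 and 3.50 in the control and 3.31 and 3.32 with verticillin A, all below the array medians (log2 change -0.22, adjusted p = 0.11). HSPB8, which works with BAG3 in clearing misfolded proteins, measured 3.70 and 3.79 in the control and 3.96 and 3.73 with verticillin A, and its groups overlapped (adjusted p = 0.596). HSPBAP1 fell under the rule by its letters only, as it encodes a protein that binds HSPB1. It measured 7.89 and 8.24 in the control and 7.81 and 7.68 with verticillin A (log2 change -0.32, interval -0.65 to 0.01, adjusted p = 0.202), with the second control array standing above the other. Without that array the change of HSPBAP1 was -0.14, and without the other control array it was -0.49.

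The BAG proteins bind the ATPase domain of HSP70 and speed up its release of nucleotide. None of the 4 measured here passed in limma, with 1 (BAG1) at an unadjusted p under 0.05, and all 4 changes were small. BAG1, which also binds BCL2, measured 7.35 and 7.45 in the control and 7.20 and 7.22 with verticillin A (log2 change -0.19, interval -0.37 to -0.01, adjusted p = 0.167). BAG2, an inhibitor of the CHIP ubiquitin ligase, measured 9.86 and 9.89 in the control and 9.90 and 9.97 with verticillin A. Its interval was -0.12 to 0.23 (adjusted p = 0.674). BAG4, also called SODD, measured 6.90 and 6.96 in the control and 6.86 and 6.86 with verticillin A (interval -0.24 to 0.10, adjusted p = 0.591). BAG5, which has several BAG domains, measured 7.47 and 7.57 in the control and 7.46 and 7.47 with verticillin A (interval -0.24 to 0.12, adjusted p = 0.688). In the main fit the intervals of BAG2, BAG4 and BAG5 leave out changes of 0.25 or more in either direction, though narrowly. Intervals were not computed for the other settings, and with median centring the change of BAG2 was 0.097 (SE 0.067).

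**Figure D3:**
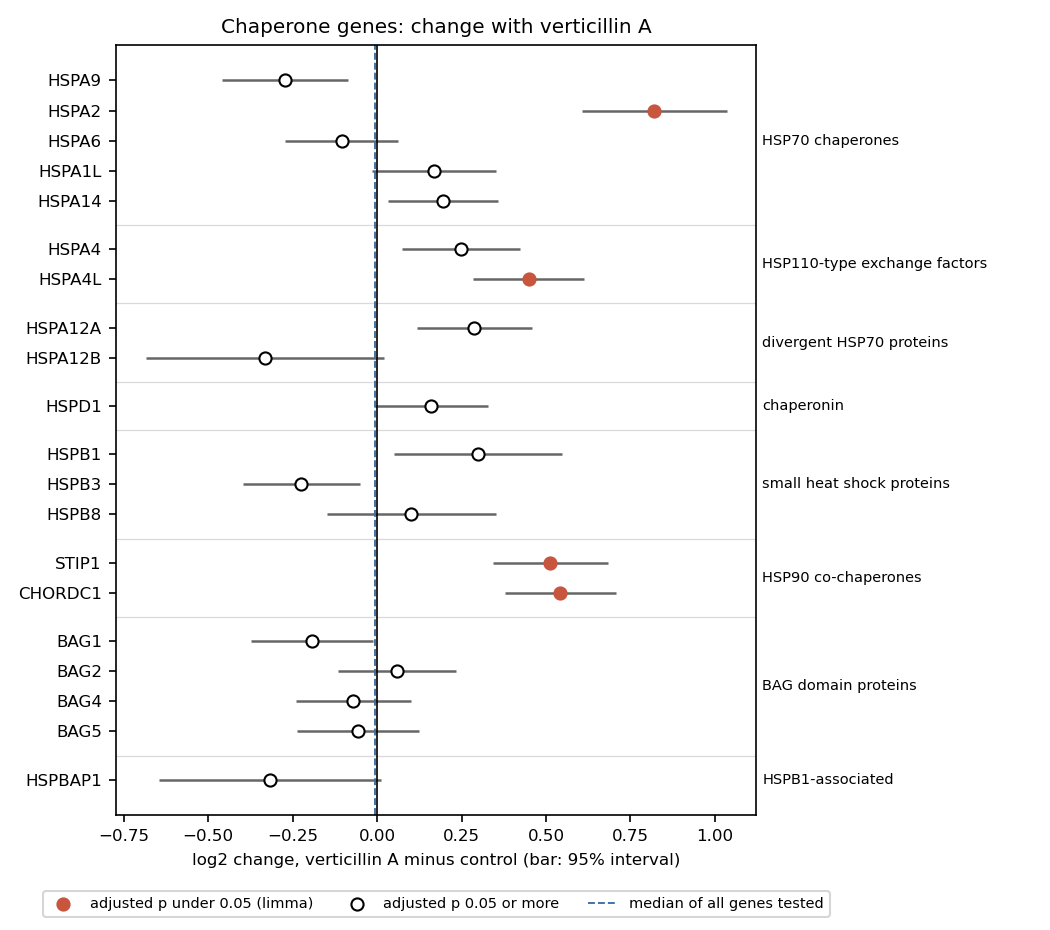
Log2 change with verticillin A (horizontal axis, treated minus control) of the 20 chaperone genes, with genes in rows by role; points are means of 2 arrays a group, bars 95% intervals from limma, filled points passed at adjusted p under 0.05, and the dashed line is the median of all genes tested (-0.01). HSPA2 (0.82), CHORDC1 (0.54), STIP1 (0.51) and HSPA4L (0.45) are the filled points, and no filled point lies below 0.

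Other genes of protein folding were taken from lists of 90 genes, of which 52 were measured. In limma 8 were higher and 3 lower, beside the 3.55% and 5.1% of all genes. Of the 8 higher, 5 are in the list of heat shock factors and inducible genes. That list was written with the rise of HSPA1A and HSPA1B in these samples known, so the pooled count is not independent evidence. These near-identical copies also count separately in it. Of 10 measured genes in the list of HSP90 and HSP70 co-chaperones, 3 rose and 1 fell (median 0.23). That list also holds TRAP1, which is itself an HSP90. HSPH1, the third HSP110-type exchange factor besides HSPA4 and HSPA4L, rose by 0.72 ± 0.07 (log2 change ± SE, adjusted p = 0.00952), PPID, a cyclophilin that binds HSP90, by 0.39 ± 0.07 and CDC37, which brings kinases to HSP90, by 0.34 ± 0.07. The related CDC37L1 fell by 0.52 ± 0.07 (adjusted p = 0.0184), so co-chaperones of HSP90 moved both ways. TRAP1, the HSP90 of mitochondria, measured 10.96 and 11.13 in the control and 10.97 and 11.04 with verticillin A (log2 change -0.04, adjusted p = 0.826).

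Of 9 measured heat shock factors and inducible genes, 5 rose and 0 fell (median 0.62). HSPA1A and HSPA1B, near-identical copies, rose by 1.30 ± 0.09 and 1.29 ± 0.10, and BAG3, a BAG protein outside the rule, rose by 0.67 ± 0.07. HSPH1 is also in this list, and the list was written with the rise of HSPA1A and HSPA1B in these samples known, so its count is not independent evidence. Of 9 measured genes of prefoldin, which brings clients to the CCT chaperonin, and of CCT modulators, 0 rose, 1 fell and the median was 0.22. The gene that fell was PFDN2 (-0.41 ± 0.07, adjusted p = 0.0319), while 7 of the 9 had both treated arrays above both control arrays, as 25.7% of all genes did. Of 12 measured ER folding genes, SDF2L1 rose (0.49 ± 0.08) and HYOU1 fell (-0.41 ± 0.07), with a median of -0.06. With the mean of its probe sets in place of the brightest one, HYOU1 no longer passed (-0.22, adjusted p = 0.162). Of 7 genes of nucleotide exchange and the mitochondrial import motor HYOU1 alone passed, and of 7 chaperones of nascent and tail-anchored proteins 0 passed in limma, with 1 at an unadjusted p under 0.05. Actin and tubulin genes, the main clients of CCT, were listed (13 genes) and 0 had a named probe set.

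**Figure D4:**
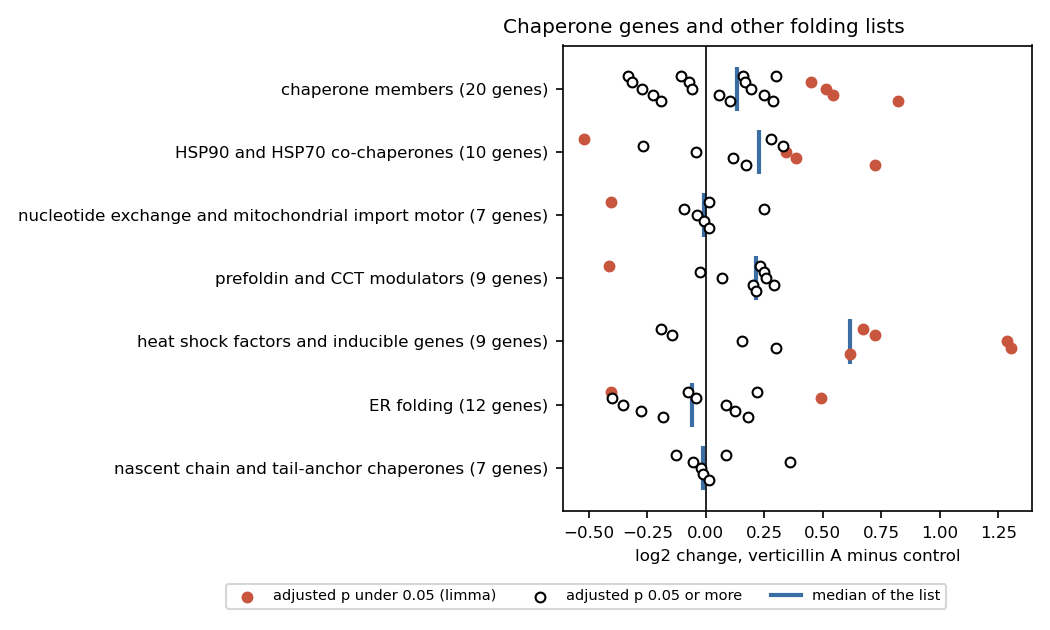
Log2 change with verticillin A (horizontal axis) of each measured gene in the 20 chaperone genes and in 6 other protein folding lists (rows, with the number of genes measured); filled points passed at adjusted p under 0.05 in limma and blue bars are medians. The medians are 0.13 for the chaperone genes and 0.62 for the heat shock factors and inducible genes, and the other lists hold filled points on both sides of 0 or at most 1.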

How the data were processed

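Total RNA (250 ng per sample) of 4 LS411N-5FU-R samples was labelled as biotinylated cDNA for an Affymetrix whole-transcript array, per the labels' protocols. The authors deposited values on a log2 scale, 1 for each probe set on each array. GCRMA is named in the submitters' processing notes; the sources used here give neither its version nor a filter or genome build. Between-array normalization of this kind hides a shift in total RNA. Of 53617 probe sets, 16098 had 1 gene symbol in the platform annotation, 0 had several and 37519 are unnamed here. RefSeq (GRCh38.p14) held the gene ID of all 16098. The probe set with the highest mean stood for a gene, which left 14884 genes.

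Groups came from the sample titles. All 4 arrays entered 1 fit (limma 3.58.1 under R 4.3.3, lmFit then eBayes, the prior constant, no filter on low values), with Benjamini-Hochberg adjustment over all genes and a threshold of 0.05. The number of arrays limits the precision. The alternatives were quantile normalization, median centring, 2 filters on dim genes, averaged probe sets, protein-coding genes only, an intensity trend, the replicate number as a block and each array left out. The fit was tested on simulated data first, with fewer changed genes than were called here. It recovered 0.6% of simulated log2 changes of 0.25, 13.2% of those of 0.5 and 89% of those of 1. Of the simulated calls 5.6% were false. A gene that did not pass is therefore not shown to be unchanged. The members and lists were chosen with earlier results of these data known. The rule for named genes took called members, main members and TRAP1, up to 2 more per role without a call, and up to 4 called genes per other list; the remaining members were added so that each is given. Protein sequences planned for display were not used here.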

Additional observations from a re-analysis of the deposited data

How the results depend on the processing

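All 4 rises (HSPA2, HSPA4L, STIP1, CHORDC1) passed under quantile normalization, median centring, averaged probe sets, protein-coding genes only, an intensity trend and the dimmest 25% left out. With the dimmest 50% left out HSPA2 was no longer tested, and HSPA4L, STIP1 and CHORDC1 passed. An intensity trend gave 9 chaperone genes higher and 1 lower, and leaving out the dimmest 50% gave 6 higher and 1 lower of 14. The gene called lower was HSPA9 both times. Over all genes calls were more frequent in these settings too, at 1067 higher and 1361 lower of 14884, and 1070 and 1329 of 7442. The median log2 change of the chaperone genes was 0.17 after centring, 0.165 and 0.178 without the dimmest 25% and 50% (18 and 14 of the genes left) and 0.0847 with averaged probe sets. Outside the fits that leave out an array, the changes kept their sign in all 152 chaperone results. Without 1 array, 0 chaperone genes were called higher and 0 lower whichever it was, with 1 residual degree of freedom and the lone sample assumed to vary like the others, and their median ranged from 0.109 to 0.153. HSPB8 ranged from -0.0148 without verticillin A replicate 1 to 0.218 without verticillin A replicate 2, and TRAP1 from -0.126 without control replicate 1 to 0.0434 without control replicate 2; the cause was not tested. Without 1 array BAG2 ranged from 0.0196 to 0.0967, BAG4 from -0.102 to -0.0384 and BAG5 from -0.107 to -0.00778. Of the 10 named genes of the other lists that had passed, 0 passed without either control array and 2 (HSPA1A and HSPA1B) without either treated array; this check was chosen after seeing the data.

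The replicate numbers were not shown to pair the samples (correlation of same-numbered deviations 0.0124 over genes). With the replicate number as a block 3 chaperone genes were higher and 0 lower, HSPA4L being the one lost, and 5 of those 10 other genes passed. Over all 14884 genes, calls were 528 higher and 759 lower, 228 and 364 with the block, and 1067 and 1361 with the trend. Without the dimmest 50% they were 1070 and 1329 of only 7442 genes tested. Centring gave 750 higher and 668 lower. They were 0 and 0 without either control array, 52 and 87 without verticillin A replicate 1, and 48 and 105 without verticillin A replicate 2. No detection calls were used, so HSPA2, HSPA6, HSPA1L, HSPA12B, HSPB3 and HSPB8, near or below the array medians, cannot be separated from background.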
